A study of Mus musculus with 23 samples.

Results

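In prefrontal cortex DNA of 23 mice, 3413 windows of 150 bp gave more methylated DNA in D2 than in B6 controls by 1.0 or more on the log2 scale. They are 1.74% of the 195677 autosomal windows measured, out of 210191 windows in all. The windows were chosen from the mean log2 RPKM (reads scaled by window length and library size) of the 6 D2 control mice minus that of the 5 B6 control mice. The difference in controls is therefore a description, and strain is tested in the 12 CORT+DFP mice, which had no part in the choice. Sex, which the rule did not use, is tested over all 23 mice. By the same rule, 18173 autosomal windows were lower in D2.

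B6 (C57BL/6J) and D2 (DBA/2J) are inbred strains that differ at many places in the genome. CORT+DFP mice, 6 of each strain, had corticosterone in the drinking water (20 mg%) for 7 days, an injection of the sarin surrogate DFP (diisopropyl fluorophosphate, 4.0 mg/kg), and further corticosterone in later weeks. Controls had water and saline. The 11 females and 12 males came in 3 sets, named after the first part of the sample name. In set 1 were 3 treated B6 mice aged 218 to 226 days, with 5 D2 mice aged 196 days, of which 2 were treated and 3 were controls. Set 2 was B6 only, with 3 treated mice and all 5 controls at 145 days of age. Set 3 was D2 only, with 4 treated mice and 3 controls at 147 days of age. No set held controls of both strains, so strain and set cannot be told apart in the controls, and set 1 alone gave a strain comparison within a set. In the CORT+DFP mice strain and set are confounded in part, since sets 2 and 3 each held 1 strain. The model for strain had no term for set.

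Most CpGs in mammalian DNA carry a methyl group, and CpG islands at active promoters usually do not. MBD-seq captures fragments with methylated CpGs through the methyl-binding domain of MBD2, so the reads in a window rise with its methylation, its number of CpGs and the number of copies of that DNA in the genome. Copy number was not measured here, so more methylation and more copies in D2 cannot be told apart. Reads from copies absent from the B6 reference genome would be placed on the copy it holds.

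The depth of a mouse, as reads over all windows, ran from 9776537 to 18428398. Sex labels were checked on the X chromosome, where the mean log2 RPKM minus that of autosomes was 0.06 to 0.32 in females and -0.69 to -0.36 in males. A pair of B6 control libraries stood apart at the chosen windows. B6 control 1, a female, had the highest mean of the 5 B6 controls in 19 of the 20 runs with the most chosen windows. Over the 47 windows with a control difference of 4 or more, its reads, scaled by library size, were 4.92% of the D2 median, and the other 4 B6 controls had 1.07% to 1.82%. B6 control 1 was also the mouse with the fewest reads. B6 CORT+DFP 2, the next lowest at 9832180 reads, had 3.26% over the same 47 windows. In the run with the most chosen windows its mean was 3.97, and that of B6 control 1 was 3.79. Whether depth plays a part, or whether the library of B6 control 1 holds D2 DNA, was not tested. B6 control 4, a male, had 0 reads across most of a segment of chromosome 10 described below. Without B6 control 1, 3668 windows met the rule, and without B6 control 4, 3436 did.

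The promoter sequences of a few chosen windows are given as examples and are not typical of the chosen windows. Windows near starts of protein-coding genes were 3.93% of them, and the median chosen window held 4 CpGs. The letters are those of the B6 reference genome, and D2 bases are not shown. The sequences were read from RefSeq promoters of GRCm38.p6, 5′ to 3′ on the strand of the gene, with each CpG in capitals. Only bases before the RefSeq start and outside annotated UTRs are shown. The bases shown for Clcn4 lie inside that gene by the GENCODE annotation used for the other positions. Those of Gm51701 (chr9:123924901-123925050, + strand), Clcn4 (chr7:7299601-7299750, - strand) and Smarca5 (chr8:80739601-80739709, - strand) are rich in CpGs. That of Fggy (chr4:95557351-95557500, + strand) has few. Those of Gm13275 (chr4:88793551-88793700, + strand) and Gm13288 (chr4:88805281-88805400, + strand) come from genes of one run, and that of Gm41561 (chr17:30858301-30858450, - strand) from the segment of Glo1.
Gm51701: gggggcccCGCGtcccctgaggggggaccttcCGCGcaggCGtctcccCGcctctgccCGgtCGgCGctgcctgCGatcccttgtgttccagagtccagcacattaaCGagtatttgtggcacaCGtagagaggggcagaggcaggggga
Clcn4: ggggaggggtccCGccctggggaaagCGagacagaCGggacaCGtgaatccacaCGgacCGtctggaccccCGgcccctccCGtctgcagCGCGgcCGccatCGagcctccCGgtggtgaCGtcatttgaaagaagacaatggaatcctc
Smarca5: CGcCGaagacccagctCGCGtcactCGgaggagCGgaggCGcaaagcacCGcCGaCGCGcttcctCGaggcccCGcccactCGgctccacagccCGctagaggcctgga
Fggy: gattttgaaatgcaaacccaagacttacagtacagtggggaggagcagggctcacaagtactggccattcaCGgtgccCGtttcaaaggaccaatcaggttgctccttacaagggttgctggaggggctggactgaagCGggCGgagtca
Gm13275: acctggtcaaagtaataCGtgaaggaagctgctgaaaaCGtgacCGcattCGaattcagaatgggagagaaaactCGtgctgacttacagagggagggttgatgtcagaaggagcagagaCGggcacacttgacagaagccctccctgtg
Gm13288: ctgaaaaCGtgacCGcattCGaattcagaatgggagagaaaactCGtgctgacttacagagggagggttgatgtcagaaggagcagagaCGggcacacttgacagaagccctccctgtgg
Gm41561: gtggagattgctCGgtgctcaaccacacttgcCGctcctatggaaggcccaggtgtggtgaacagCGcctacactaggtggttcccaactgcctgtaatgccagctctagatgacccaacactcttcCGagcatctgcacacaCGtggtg
The sequence of Gm51701 holds 12 CpGs, that of Clcn4 14, that of Smarca5 15 in 109 bases, and that of Fggy 4. The Gm13275 and Gm13288 sequences, 11730 bp apart, share an unbroken run of 119 bases. A read from that run could belong to either gene, so the values of single genes in it are uncertain.

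In the CORT+DFP mice the chosen windows were higher in D2 almost throughout. Of the 3413 windows, 3386 (99.2%) were called higher in D2 by limma at an adjusted p under 0.05 (strain, sex and age in the model, Benjamini-Hochberg over all windows), where 9.8% of autosomal windows were. None was called lower in D2, where 31713 autosomal windows were. Every D2 CORT+DFP mouse lay above every B6 CORT+DFP mouse at 2919 windows (85.5%), against 5.23% of autosomal windows. In set 1 alone, with 3 B6 and 2 D2 CORT+DFP mice, 3183 were called. The share of autosomal windows called in that fit was not counted. The 3183 include windows that entered the table through D2 alone, described below, so the number is a description. That fit had strain and sex but no age, since all D2 mice of set 1 were younger than its B6 mice, so age and strain cannot be told apart there.

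Part of these counts was set by how the table was made. The authors kept windows with a CPM (reads scaled to library size) above 1 in at least 2 libraries, and a window could pass through D2 alone. The lowest value that the second-highest mouse of any window took was a log2 RPKM of 3.75. At 1034 chosen windows (30.3%) fewer than 2 B6 mice reached it, so these windows are listed through D2 and their calls are no support. At the other 2379 chosen windows, 2353 (98.9%) were called higher in D2, against 9.22% of the 194377 autosomal windows where B6 reached that value too. Every D2 CORT+DFP mouse lay above every B6 CORT+DFP mouse at 2029 of the 2379 (85.3%), against 4.74%. Their median CORT+DFP difference was 1.21.

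The strain difference had like medians in both treatments. It was 1.32 in controls and 1.32 in CORT+DFP mice, where the middle 50% of windows lay between 1.05 and 1.78 and the median over all autosomal windows was 0.02. The median fold in CORT+DFP mice was 2.5. In CORT+DFP mice 2733 windows (80.1%) reached 1.0 again, 617 reached 2.0, 190 reached 3.0 and 50 reached 4.0. The median log2 RPKM over the chosen windows was 3.59 to 4.00 in the 6 B6 CORT+DFP mice and 4.87 to 5.23 in the 6 D2 CORT+DFP mice, and the 2 ranges do not overlap.

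**Figure D1:**
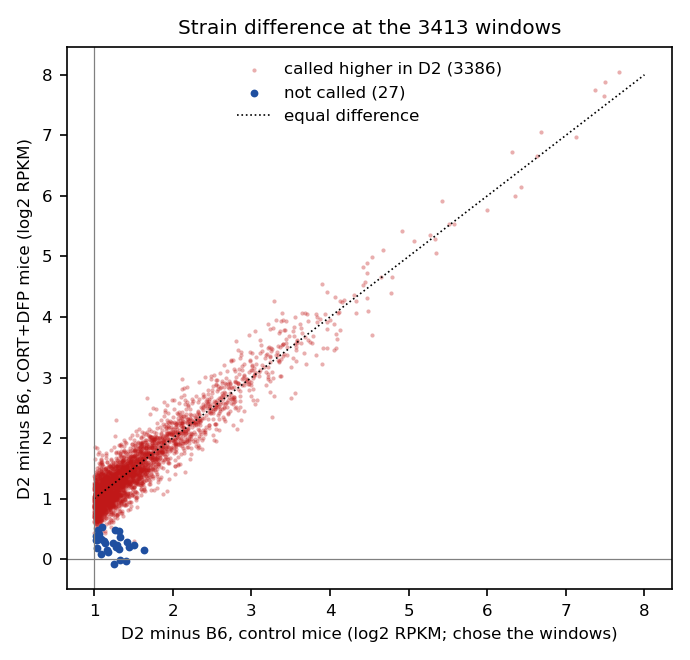
The D2 minus B6 difference in mean log2 RPKM of each chosen window, in controls (x axis, which chose the windows) and in CORT+DFP mice (y axis). The points lie along the line of equal difference, up to 8.05, and the 27 windows not called (blue) lie at the low end of the y axis.

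Of the 27 windows not called, 19 lay in the chromosome 10 segment. The other 8 had differences of 0.18 to 0.53 in CORT+DFP mice. The 3 windows just inside the threshold had CORT+DFP differences of 0.99, 0.86 and 1.16, and the 3 just outside it 0.98, 0.81 and 0.94.

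Some windows were low in B6 and others high in D2. In CORT+DFP mice, 1666 (48.8%) lay under the 5th percentile of autosomal windows in B6 (3.90) without passing the 95th in D2 (5.29). Another 1084 (31.8%) passed the 95th percentile in D2 without being low in B6, 297 did both, and 366 did neither. The median window had 24.0 reads per B6 mouse and 72.2 per D2 mouse. A mean of 3 or fewer reads in B6 was found at 85 autosomal windows, and all 85 were among the chosen ones. The filter largely set this outcome, since a window that low in B6 could hardly enter the table except through D2. Fewer than 2 B6 mice reached 3.75 at 1300 autosomal windows, of which 1034 were chosen. The number of chosen windows low in B6 therefore rests in part on the filter.

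The chosen windows were poor in CpGs. Their median was 4 CpGs, against 6 for autosomal windows, and 26.9% held 1 or 2 CpGs, against 7.78%. They were 6.04 of every 100 autosomal windows with 1 or 2 CpGs and 0.79 of every 100 with 8 to 11. The share rose again to 1.74 of every 100 with 12 or more CpGs, and these 134 windows had the largest median difference of the 5 classes in CORT+DFP mice, at 2.11. The other 4 classes had medians of 1.29 to 1.33. The class of 12 or more also had the lowest median reads per B6 mouse, 14.2, against 18.1 to 41.7 in the others. No class leaves out windows that entered the table through D2 alone, so these shares and medians are a description.

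**Figure D2:**
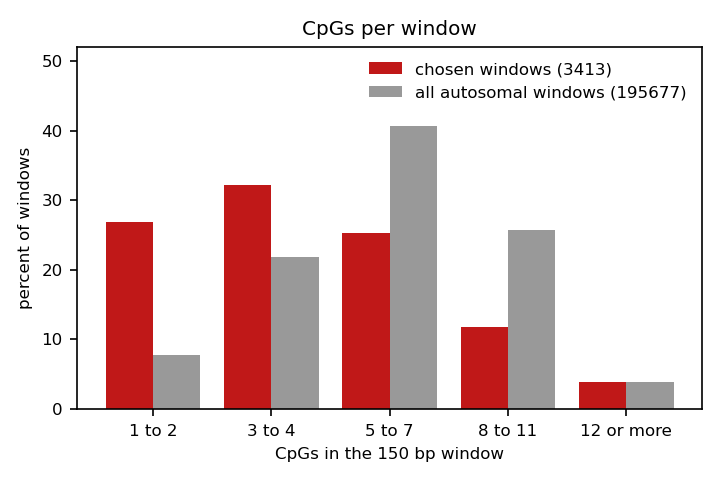
Percent of windows (y axis) in each class of CpGs per 150 bp window (x axis), for the chosen windows (red) and all autosomal windows (grey). The chosen windows are more often in the 2 lowest classes, with 26.9% and 32.1% against 7.78% and 21.9%.

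They were less often in genes. Of the chosen windows, 44.8% lay in an annotated gene, 26.5% in a protein-coding gene and 14.7% in an exon, and the shares over autosomal windows were 49.7%, 41.5% and 25.7%. Within 1 kb of the start of a protein-coding gene lay 134 windows (3.93%), against 3.47%. Chromosome 8 held the most, 533 (4.42% of its windows), followed by chromosomes 13 (373), 6 (362), 17 (358) and 4 (306). Chromosome 19 held the fewest, 28 (0.63%).

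The windows lay next to each other. With starts up to 10 kb apart joined, they formed 902 runs, and 3044 windows (89.2%) had another chosen window within 10 kb. Of the measured windows within 10 kb of a chosen one, 51.1% were chosen too, where the share around any autosomal window was 3.33%. The 21 runs of 20 or more windows held 1053 windows, with a median CORT+DFP difference of 1.63. The 369 windows on their own had a median of 1.00. Measured windows within 1 kb of those 369, which were not chosen, had a median of 0.41. None of these medians leaves out windows that entered the table through D2 alone.

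The run with the most chosen windows, on chromosome 8 (chr8:123537901-123623850, 85.95 kb), covered 41 5S rRNA genes, the tandem array that encodes the small RNA of the large ribosomal subunit. Of its 303 measured windows 209 were chosen, and 297 were called higher in D2, where 9.8% of autosomal windows were. The 297 include windows that entered the table through D2 alone, whose calls are no support. Its mean log2 RPKM was 2.73, 3.24 and 3.97 in B6 CORT+DFP mice (lowest, median, highest) and 4.94, 5.34 and 5.86 in D2 CORT+DFP mice. The difference of the means was 2.09, and within set 1 it was 2.23. Over the 126 of the 209 windows that B6 mice also carried into the table, it was 1.48 (exact permutation test, two-sided, p = 0.00216, n = 6 and 6). That is the smallest p that 6 against 6 mice can give.

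The run on chromosome 6 (chr6:114492901-114629550) overlapped no annotated gene. It was longer, at 136.65 kb, with 207 chosen windows of 356 measured. B6 CORT+DFP mice lay at 3.13, 3.66 and 4.20 and D2 CORT+DFP mice at 5.24, 5.79 and 6.13, a difference of 2.07, and 2.01 over the 143 windows that B6 also carried. The groups did not overlap in either run.

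On chromosome 4 (chr4:88771651-88807050) a run of 72 windows, of 89 measured, lay over Ifnz, which encodes the type I interferon zeta, and 11 predicted protein-coding genes. B6 CORT+DFP mice lay at 2.82, 3.43 and 3.94 and D2 CORT+DFP mice at 5.29, 5.85 and 6.34, a difference of 2.43, and 2.25 over the 44 windows that B6 also carried. Windows that were not chosen lay among them and went as far as the opposite direction, as the plot of segments shows.

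A pair of runs on chromosome 17 lay over genes of one family. The run at chr17:6590251-6640500 (69 windows) covered Dynlt1c and the one at chr17:6434101-6526350 (61 windows) Dynlt1b, both genes for light chains of dynein, the motor that moves cargo along microtubules. Their differences were 1.32 and 1.51, and in both every D2 CORT+DFP mouse lay above every B6 CORT+DFP mouse. The pseudogenes Tmem181c-ps and Tmem181b-ps lay in the same runs. Over the 49 and 35 windows that B6 also carried, the differences were 1.28 and 1.49.

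Of the 20 runs with the most chosen windows, 18 had every D2 CORT+DFP mouse above every B6 CORT+DFP mouse. Windows that entered the table through D2 alone were not left out of these means, so the count is a description. They were left out only for the 5 runs with the most windows, and there the groups still did not overlap. The other 2 runs had overlapping groups, both on chromosome 8. The run at chr8:20590651-20615100 had 3.99 to 5.23 in B6 CORT+DFP mice and 5.19 to 6.34 in D2 CORT+DFP mice. That at chr8:20374651-20395200 had 3.47 to 5.05 and 4.64 to 6.04.

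**Figure D3:**
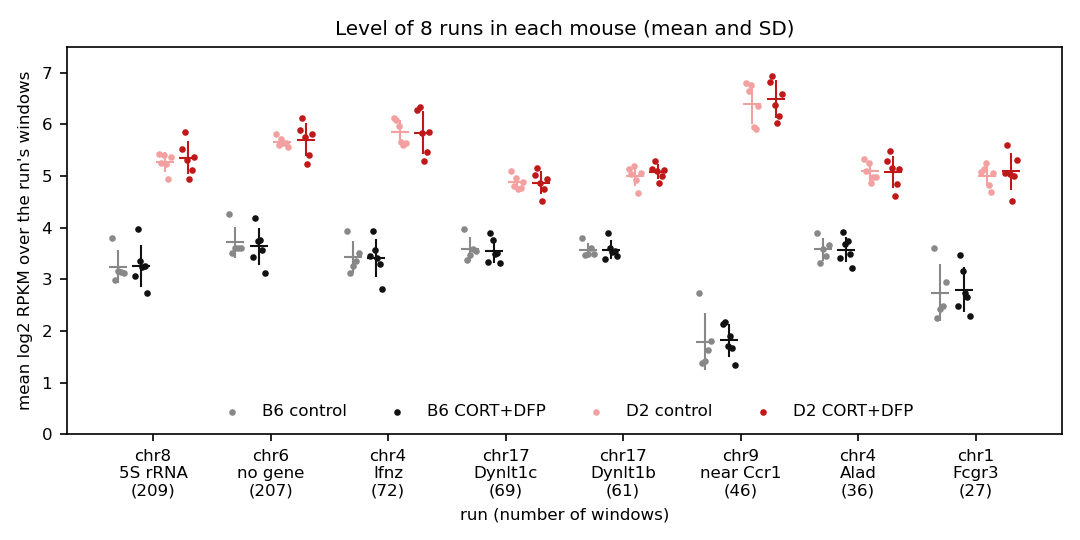
Mean log2 RPKM over the chosen windows of 8 runs (y axis) in each mouse (points), with the mean and SD of each group, and the number of windows in brackets. In all 8 runs the D2 mice lie above the B6 mice, and CORT+DFP and control mice of one strain overlap. The controls chose the windows, so their separation was set by that choice. The 2 runs with overlapping CORT+DFP groups are not among the 8. Windows that entered the table through D2 alone were not left out of the means.

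The 6 windows with the largest control difference, 6.69 to 7.67, were neighbours on chromosome 9, about 37 kb from Ccr1, a chemokine receptor gene, in a run of 46 chosen windows (chr9:123923251-123936900). The first of them, chr9:123925351-123925500 with 16 CpGs, had 0 to 3 reads in each B6 CORT+DFP mouse and 671 to 1143 in each D2 CORT+DFP mouse. Its log2 RPKM was -0.03, 0.60 and 1.22 in B6 and 8.32, 8.57 and 8.77 in D2, where -0.03 is the value of 0 reads. The fitted difference was 8.14, and its size depends on the 2 prior reads that the authors' formula adds. All 6 windows entered the table through D2, so no p is given for them. In B6 controls the same window had values from -0.03 to 3.53, and the highest was B6 control 1 with 15 reads. The other 4 B6 controls had 0 or 1 read.

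Genes with chosen windows at their start numbered 47. Of the 134 windows at these starts, 66 entered the table through D2 alone, and the values below are descriptions with no test. Clcn4, which encodes a chloride and proton exchanger of endosomes, had 3, with a median CORT+DFP difference of 4.88. At chr7:7299601-7299750, the sequence printed above, B6 CORT+DFP mice had 0 to 2 reads and D2 CORT+DFP mice 64 to 111. The values were -0.03, -0.03 and 0.91 in B6 and 4.75, 5.43 and 5.79 in D2.

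Fcgr3, a gene for an Fc receptor of antibodies on myeloid cells and microglia, had 6 windows at its start with a median of 2.76. Its run on chromosome 1 (chr1:171063751-171079350, 27 windows) lay at 2.29, 2.70 and 3.47 in B6 CORT+DFP mice and 4.53, 5.05 and 5.60 in D2 CORT+DFP mice. Itln1, which encodes an intestinal lectin that binds microbial sugars, had 2 windows with a median of 3.68, and Fggy, a carbohydrate kinase gene, had 2 with a median of 3.59. Smarca5, the gene of a chromatin remodelling ATPase, had 3 (median 2.07), Nat8f4 had 3 (2.09) and Sfn, the gene of the 14-3-3 protein sigma, had 4 (1.93). In the Ifnz run, where values of single genes are uncertain, Gm13275 had 7 (3.45), Ifnz 3 (3.41), Gm13276 6 (2.41) and Gm13288 4 (2.36). Apart from Clcn4, Fcgr3 and the genes of the Ifnz run, these genes were chosen after their values were seen.

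The run at chr4:62498551-62522100 lay over Hdhd3 and Alad. Alad encodes the enzyme of the second step of haem synthesis and is known to be duplicated in DBA/2 mice. All 36 windows measured in it were chosen. B6 CORT+DFP mice lay at 3.22, 3.59 and 3.92 and D2 CORT+DFP mice at 4.61, 5.14 and 5.48, a difference of 1.51. A run on chromosome 7 (chr7:59523451-59551200) covered Snhg14, the host transcript of a cluster of small nucleolar RNAs. All 21 windows measured in it were chosen, and B6 CORT+DFP mice lay at 2.57 to 3.48 and D2 CORT+DFP mice at 4.62 to 5.28. These runs too were chosen after their values were seen.

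The segment of Glo1, the gene of glyoxalase 1, which removes the toxic metabolite methylglyoxal, is known to be duplicated in D2. In or within 2 kb of Btbd9, Glo1, Dnah8 and Glp1r lay 304 measured windows, of which 75 (24.7%) were chosen and 285 were called higher in D2. Over autosomal windows 1.74% were chosen and 9.8% called higher. Windows that entered the table through D2 alone were not left out of the 285. The chosen ones had CORT+DFP differences of 0.65 to 1.62 with a median of 1.01. Borders drawn on these values, where the medians of 50 kb bins stepped up, gave a segment from chr17:30450001 to chr17:30950000. It is a description with no test. Over its 298 windows the median difference was 0.94, and the mean log2 RPKM was 3.65 to 3.94 in B6 CORT+DFP mice and 4.48 to 4.89 in D2 CORT+DFP mice. Windows with 3 or fewer CpGs (97) had a median of 0.99 and those with 8 or more (29) of 0.92. The chosen window with the largest control difference there (1.63), chr17:30624451-30624600, overlaps Glo1 and Dnah8. Its CORT+DFP difference was 1.29, and it entered the table through D2.

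**Figure D4:**
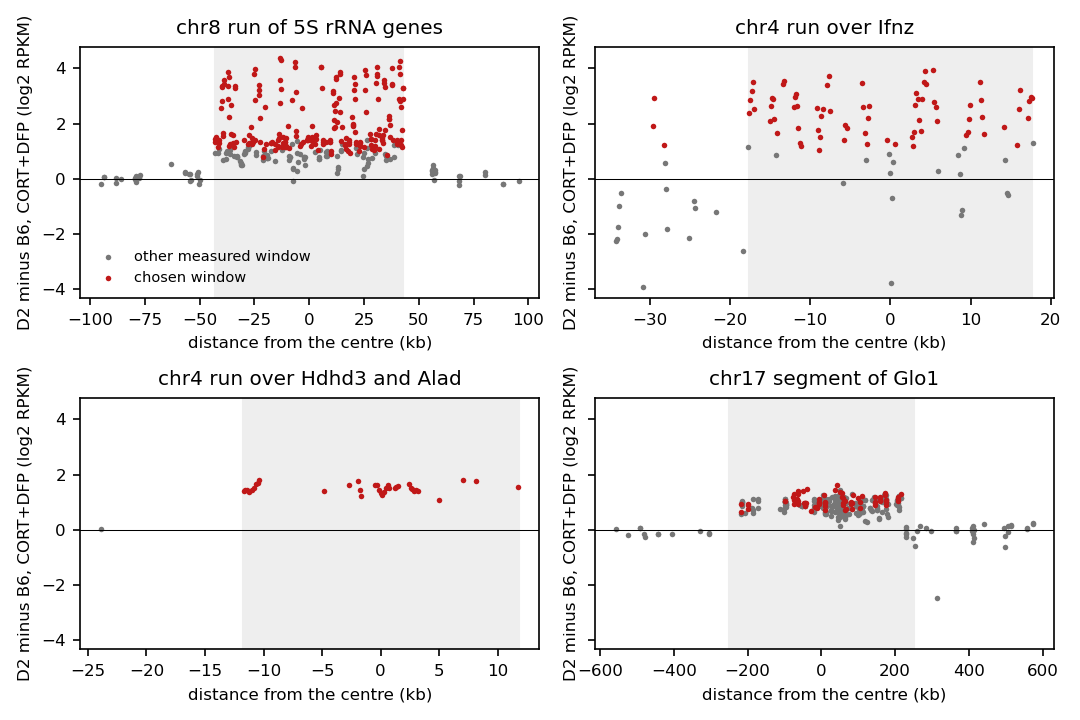
D2 minus B6 difference in mean log2 RPKM in CORT+DFP mice (y axis) against distance from the centre of 4 segments (x axis, kb), for chosen windows (red) and other measured windows (grey), with the segment shaded. Windows in the 5S, Alad and Glo1 segments lie above 0 with few exceptions, and those beside the 5S and Glo1 segments lie near 0, with 1 far below it beside Glo1.

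In other gene lists there was no chosen window, where 1.74% of autosomal windows were chosen, a share that leaves few to be found in lists of this size. Snhg14, whose run of chosen windows is described above, was in none of these lists, the imprinted one included. The lists were the stress axis and glucocorticoid targets (66 windows), cholinergic genes (49), cortical plasticity (88), the methylation machinery (126), imprinted genes (117), and coat, vision and hearing genes mutated in D2 (92). Their median CORT+DFP differences were 0.01 to 0.09, against 0.02 over autosomal windows. By limma at an adjusted p under 0.05, 5 windows of the stress axis list were called higher in D2 and 1 lower, and 5 higher and 10 lower in the plasticity list. The methylation machinery had 4 higher and 1 lower. The cholinergic (2), imprinted (3) and coat, vision and hearing (3) lists had calls in the higher direction only. Over all 195677 autosomal windows, 19175 (9.8%) were called higher in D2 and 31713 lower. The list counts are a description and no result about these genes.

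A segment of chromosome 10 (chr10:42920551-43205550, 285 kb, over Scml4, Sobp and 9030612E09Rik) was among the chosen windows because of 1 mouse. It was picked out after its values were seen. Of its 22 measured windows 21 were chosen, and B6 control 4 had 0 reads at 19 of the 22. Without that mouse, 0 of the 21 met the rule. Relative to the flanks, the median of B6 control 4 was -4.50, that of B6 control 3 was -1.05, that of B6 control 1 was -0.68, and those of B6 controls 2 and 5 were -0.31 and -0.16. B6 CORT+DFP 4, a mouse of the same set, was at -1.13, and the other 5 B6 CORT+DFP mice lay between -0.26 and 0.07. All 12 D2 mice lay between -0.13 and 0.09. In CORT+DFP mice the 21 windows had a median difference of 0.22 and 2 were called. The 3 lowest chosen windows, at -0.09, -0.03 and -0.02, lie here.

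**Figure D5:**
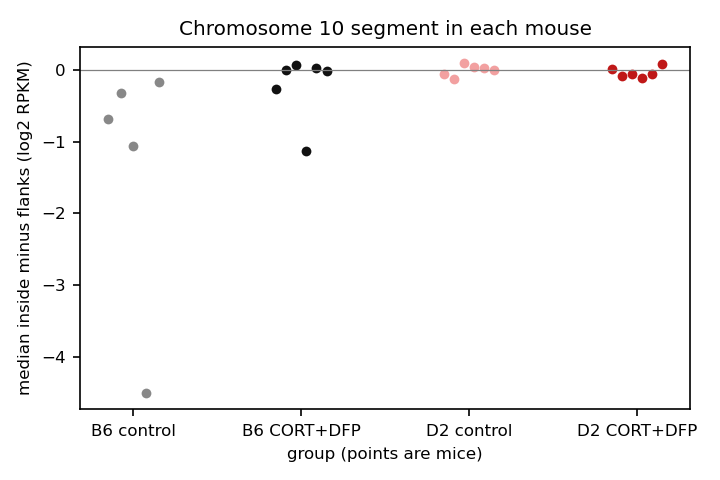
Median log2 RPKM of the chromosome 10 segment minus that of its flanks (y axis) in each mouse (points) of the 4 groups (x axis). B6 control 4 lies at -4.50, B6 control 3 and B6 CORT+DFP 4 lie near -1, and all D2 mice lie near 0.

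Few chosen windows differed by sex, at a share near that of autosomal windows. By limma over all 23 mice, 16 (0.469%) were called at an adjusted p under 0.05, against 0.64% of autosomal windows (58 chosen windows with quantile normalization), with 12 higher in males and 4 in females, by 0.30 to 0.51. The smallest adjusted p was 0.0034, at chr1:100224751-100224900 in Cntnap5b, which encodes a neuronal cell adhesion protein. There males were higher by 0.40 (SE 0.09), with 3.51 to 3.98 in B6 females and 4.03 to 4.49 in B6 males, and 5.03 to 5.61 in D2 females and 5.28 to 5.86 in D2 males. The sexes did not overlap in B6 and did in D2. The next, at chr12:22047151-22047300, was higher in males by 0.42 (SE 0.10, limma adjusted p = 0.0066). Those higher in females included windows of Clcn4 and Smarca5. The Clcn4 windows, chr7:7299601-7299750 and chr7:7299451-7299600, entered the table through D2 alone and had 0 to 3 reads in each B6 mouse. Their limma adjusted p for sex, 0.0447 and 0.0485, lay close to the threshold.

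Between treatments, the medians of CORT+DFP minus control over the chosen windows were -0.07 in B6 and 0.01 in D2. Controls chose the windows, so these are given with no test.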

How the data were processed

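The authors aligned paired reads to GRCm38 with STAR 2.5.0a, counted them in 150 bp windows with MEDIPS, kept windows with CpGs and a CPM above 1 in at least 2 libraries, and deposited log2 RPKM scaled by edgeR 3.34.1, with a prior count. A separate column gives CpGs per window. From these log2 values, whole reads were recovered at 100% of values (tolerance 0.02). Groups, sex, age and set came from the labels, and 0 columns were left over. Genes came from GENCODE M21 and promoters from RefSeq. CpGs counted in promoter sequences equalled the listed number at 95.2% of 579 windows.

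Strain was fitted in the 12 CORT+DFP mice with strain, sex and age, and sex in all 23 mice with age, treatment, strain and treatment by strain, in limma 3.58.1 (R 4.3.3). P-values were adjusted over all 210191 windows. Permutation tests used scipy 1.17.1. P-values measure the spread between these mice, each of them 1 library. The methods were tested on simulated reads.

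The windows and gene lists were chosen with earlier results of these data known. Named were the 6 windows with the largest control difference, the 5 runs with the most windows, the 10 largest windows at protein-coding starts (given by gene), those of the Glo1 segment, the 3 on each side of the threshold, the 3 lowest in CORT+DFP mice, and the 2 with the smallest p for sex.

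Alternatives were no age, least squares, voom weights, log2(RPKM + 1), median centring, quantile normalization, a filter on reads, autosomes alone, set 1 alone (no age), other joining distances and each mouse left out. Leaving out the chromosome 10 windows, or windows that passed the filter through D2 alone, was added after seeing the data.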

Additional observations from a re-analysis of the deposited data

Results flagged for a closer look

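In 12 of 131 groups of 5 or 6 mice, 1 mouse lay far from the others by Dixon's ratio, the gap to the nearest mouse divided by the range. Chance flags about 1 in 20 independent groups. These groups share mice and neighbouring windows, and some values lie at 0 reads, so the number is not set against chance. In B6 controls replicate 1 was the highest and stood apart in the means of the chromosome 8 run of 5S genes (ratio 0.776, 3.79 against 3.17 for the next mouse) and of the chromosome 6 run (0.867, 4.26 against 3.61). It did so also at chr4:88781551-88781700 beside Ifnz (0.733, 10 reads against 3 or 4), at chr9:123924901-123925050 (1, 2.87 against -0.03), and at chr9:123925351-123925500 and chr9:123925501-123925650 (0.820 at both, 3.53 against 0.61). In B6 CORT+DFP mice the highest stood apart at chr4:88805401-88805550 (0.680, 1.65 against 0.91) and chr9:123925051-123925200 (0.656, 1.88 against 0.63). The lowest B6 control stood apart in the chromosome 10 segment at chr10:43081951-43082100 (0.787, -0.03 against 3.27) and chr10:43197901-43198050 (0.763, -0.03 against 3.42). The lowest B6 CORT+DFP mouse did so at chr10:43081801-43081950 (0.778, 3.23 against 4.29), and the lowest B6 control at chr11:10439701-10439850 (0.724, 3.37 against 4.07).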

How the results depend on the processing

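Under the alternatives run, 3183 (set 1 alone) to 3388 (median centring) of the chosen windows were called higher in D2. These counts include windows that entered the table through D2 alone, and no share of autosomal windows is given beside them. The filter of more than 3 mean reads in each strain, which keeps fewer windows, gave 3301. With the chromosome 10 windows left out, 3384 were called, and among windows that B6 mice also carried into the table, 2353, both chosen after seeing the data. With each CORT+DFP mouse left out, the called windows numbered 3338 to 3386, the windows without overlap 2920 to 3110, and the median difference was 1.28 to 1.38. With each control left out, 3200 to 3705 windows met the rule. Quantile normalization moved 3 results: 6683 windows met the rule, the median CORT+DFP difference was 1.84, and 58 windows were called for sex. The cause was not tested. Among single windows, the window at chr8:20278201-20278350, just inside the threshold, lost its call without B6 CORT+DFP replicate 6 (0.66), by least squares (1.14) and in set 1 alone (0.37). That at chr7:40131751-40131900 lost it in set 1 alone (0.50). The age, least squares, voom and autosomes-alone alternatives change only the fitted test, so they give no value for the median difference or the overlap of mice. No paired analysis was possible because the replicate numbers follow sample order and name no shared animal, litter or day. Windows with few reads in B6 limit the precision of the largest differences.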

Other observations

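Over the 47 windows with a control difference of 4 or more, each B6 CORT+DFP mouse held a small share of the D2 median, with reads scaled by library size. The lowest was 0.97% and the highest 3.26%. D2 mice differed by set there. The 5 D2 mice of set 1 lay between 111% and 131% of the D2 median, and the 7 of set 3 between 76.0% and 104%. The ranges do not overlap. Set 1 D2 mice were 196 and set 3 D2 mice 147 days old, so set and age cannot be told apart.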
